A study of Macaca mulatta with 4 samples.

Results

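The genes described here are 8 genes of cholesterol synthesis and of its control by the transcription factor SREBP2: HMGCS1, IDI1, FDFT1, SQLE, LSS and DHCR7, which encode enzymes of the pathway, and SREBF2 and INSIG1, which encode SREBP2 itself and a protein that restrains it. They were taken by symbol from a table of 21314 Ensembl macaque genes. Of the 8, 6 had a matched identifier, and all 6 passed the filter on low counts with 13227 genes in all. INSIG1 and FDFT1 had no matched identifier in the table and were not analysed here. RNA was sequenced from rhesus macaque (Macaca mulatta) morulae, the compacting ball of cells that precedes the blastocyst. GG embryos are gynogenetic, with nuclear chromosomes of maternal origin only, and AG embryos are androgenetic, with nuclear chromosomes of paternal origin only. There were 2 libraries of GG and 2 of AG morulae, and no biparental embryos are among the 4 libraries. Their cDNA was amplified with a SMARTer low-input kit, per the labels' protocols, which leave unclear how many embryos went into a library and whether the replicates of a group came from separate animals. The p-values therefore measure the spread between these libraries, which may be technical in part.

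Cells make cholesterol from acetyl-CoA through the mevalonate pathway, whose products also feed dolichol, coenzyme Q and protein prenylation. When sterols in the endoplasmic reticulum run low, SREBP2 travels with its escort SCAP to the Golgi, is cut there by proteases, and its released part switches on the genes of the pathway and of sterol uptake. When sterols are plentiful, INSIG proteins hold SCAP and SREBP2 in the endoplasmic reticulum. A dividing embryo needs cholesterol for new membrane.

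The libraries held 21335918 and 29733977 estimated counts in GG replicates 1 and 2, and 14129608 and 19108735 in AG replicates 1 and 2. Levels are given as CPM, counts relative to the scaled total of tested genes; they are not corrected for gene length, so a level is compared between libraries and never between genes. The libraries showed the pluripotency factor gene POU5F1, at 465.5 and 479.2 CPM in GG and 180.9 and 389 CPM in AG. NANOG stood at 129.4 and 141.4 CPM in GG replicates 1 and 2, and at 150.5 and 25.0 CPM in AG replicates 1 and 2. Neither was called, with log2 fold changes of 0.73 for POU5F1 and 0.63 for NANOG. The summed level of 6 measured epiblast markers of 10 listed was 1116 and 1471 CPM in GG and 530.2 and 513 CPM in AG, and its members did not move together. DPPA2, at 488.1 and 820.4 CPM in GG and 100.7 and 28.4 CPM in AG, and TFCP2L1 were higher in GG (edgeR adjusted p = 0.0348 and 0.0159), whereas DPPA4 and KLF17 were lower in GG, with log2 fold changes of -1.98 and -4.23 (edgeR adjusted p = 0.0281 and 0.0294). For trophectoderm, 6 of 9 markers were measured, summing to 374.7 and 680.8 CPM in GG and 153.3 and 133 CPM in AG. GATA2 had 0 counts in both AG libraries. GATA2, KRT18, CLDN4 and ELF3 were called higher in GG and 0 of the 6 lower. TFAP2C lay lower in both GG libraries, at 48.1 and 61.7 CPM against 104.2 and 110.1 CPM in AG. Its log2 fold change of -0.96 was not called by edgeR (adjusted p = 0.0779) but was by DESeq2 (adjusted p = 0.0229). GATA3 had a log2 fold change of -0.06. For primitive endoderm, 6 of 7 markers summed to 187.1 to 193.1 CPM in GG and 134.4 to 193 CPM in AG. APOA1, with 0 and 1 counts in AG, and LAMB1 were called higher in GG and 0 of the 5 tested lower. PDGFRA lay lower in both GG libraries, at 114.6 and 93.3 CPM against 115.5 and 154.3 CPM in AG, and was not called (log2 fold change -0.38). GATA4 and GATA6 were not called either, with log2 fold changes of 0.36 and 0.09, and overlapped between the groups. Among markers of cells that could cling to an embryo, 6 of 8 for cumulus cells were measured. They summed to 2.18 and 11.1 CPM in GG and 6.84 and 0.508 CPM in AG, with FSHR at 0 counts in all 4 libraries. TNFAIP6 made up 10.5 CPM of the sum in GG replicate 2. AMHR2 made up 3.63 CPM of it in AG replicate 1 and had 0 counts in AG replicate 2. The 6 of 7 blood cell markers summed to 15.1 and 16.9 CPM in GG and 152 and 67.9 CPM in AG. In AG, PTPRC, called lower in GG, made up 140.9 and 65.9 CPM. CD3E had 0 counts in GG and 1 count in AG. LYZ went the other way, at 5.37 and 9.82 CPM in GG and 0.427 and 1.27 CPM in AG. Its log2 fold change was 3.13 (edgeR adjusted p = 0.0533), and DESeq2 called it (adjusted p = 0.00148). SPI1 and CD14 had log2 fold changes of 2.69 and -0.92 (edgeR adjusted p = 0.241 and 0.632). The 5 of 6 sperm markers measured summed to 0 CPM in both GG libraries and to 0.499 and 0.0508 CPM in AG, where AKAP4 had 6 and 1 counts and TNP1 1 and 0 counts, with PRM2, TNP2 and ODF1 at 0 in all libraries. Oocyte markers, 6 of 8, summed to 14.4 and 4.81 CPM in GG and 7.84 and 4.77 CPM in AG. The part of these lineage and cell markers in the results below was not tested, and in bulk RNA a smaller share of cells of a type and less RNA per cell cannot be told apart.

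Of the 6 measured genes, 2 rose in GG morulae, HMGCS1 and IDI1, and 0 fell. The edgeR quasi-likelihood test with Benjamini-Hochberg adjustment over all genes, at an adjusted p under 0.05, called 12.9% of the 13227 tested genes in either direction, 6.34% higher in GG and 6.58% lower. The other 4, SQLE, LSS, DHCR7 and SREBF2, were not called. The log2 fold change was positive in 5 of the 6, as in 51.1% of tested genes, with a median of 1.18 against 0.04 over all tested genes. SQLE alone among the 6 had a negative log2 fold change. The groups did not overlap in 4 of the 6 genes, HMGCS1, IDI1, SQLE and SREBF2, a separation shown by 64.1% of all tested genes.

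**Figure D1:**
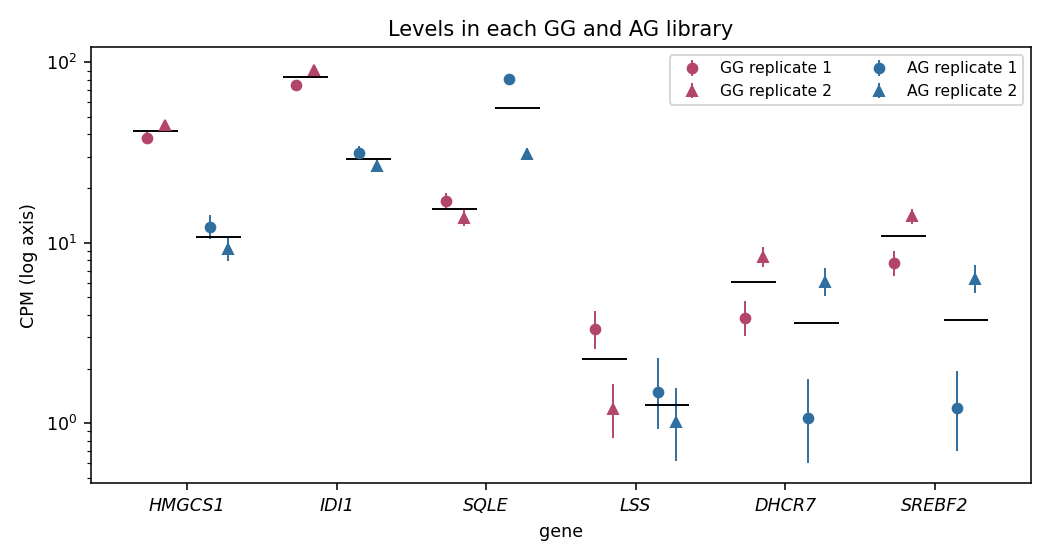
Level of each of the 6 measured genes in CPM (log axis) in every library. Circles are replicate 1, triangles replicate 2, black lines group means, and thin vertical lines exact 95% Poisson intervals, which cover counting error only. HMGCS1 and IDI1 stand higher in both GG libraries, SQLE stands higher in both AG libraries, and DHCR7 and SREBF2 differ more than 5-fold between the AG libraries.

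HMGCS1 (ENSMMUG00000001226) encodes the cytosolic HMG-CoA synthase, an early enzyme of the mevalonate pathway. It stood at 38.2 and 45.2 CPM in GG replicates 1 and 2, and at 12.3 and 9.24 CPM in AG replicates 1 and 2. Both GG libraries lay above both AG libraries, and replicates of a group lay close together. The means were 41.7 ± 4.96 CPM in GG and 10.7 ± 2.13 CPM in AG (SD, n = 2 each), a log2 fold change of 1.96 ± 0.35 SE (edgeR adjusted p = 0.0294), or 3.89-fold. The gap between the AG libraries was 1.33-fold, and 61.4% of tested genes had a larger one.

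IDI1 (ENSMMUG00000017115) encodes the isomerase that interconverts the pathway's isoprenoid building blocks. Its level was 75.4 and 90.6 CPM in GG replicates 1 and 2, and 31.5 and 26.8 CPM in AG replicates 1 and 2. The groups again stood apart, with replicates of a group within 1.20-fold of each other in GG and 1.17-fold in AG. The means were 83.0 ± 10.7 CPM in GG and 29.2 ± 3.30 CPM in AG (SD, n = 2 each), a log2 fold change of 1.51 ± 0.30 SE (edgeR adjusted p = 0.0351), or 2.85-fold. IDI1 was also 1 of the genes whose deposited counts were not whole in some libraries, so reads shared with near-identical sequence may have been divided there, and its value carries that uncertainty. The deposited counts of the other 5 genes were whole in all 4 libraries.

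For both genes the call was lost when a GG library was left out, and kept when an AG library was left out. HMGCS1 had an adjusted p of 0.172 without GG replicate 1 and 0.236 without GG replicate 2, with log2 fold changes of 2.08 and 1.80. IDI1 had an adjusted p of 0.204 and 0.299 in the same fits, with log2 fold changes of 1.64 and 1.34. In those fits the lone GG library was assumed to vary like the AG pair, and 119 and 84 genes were called over all genes in place of 1709, or 0.851% and 0.602% of those tested. Without AG replicate 1 or 2, the calls covered 15.7% and 26.7% of tested genes.

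SQLE (ENSMMUG00000003535) encodes squalene epoxidase, which catalyses the first oxygen-requiring step and is a known point of control of the pathway. Its level was 17.0 and 13.7 CPM in GG replicates 1 and 2, and 80.8 and 31.0 CPM in AG replicates 1 and 2. Both GG libraries lay below both AG libraries, and the AG libraries lay 2.60-fold apart. The means were 15.3 ± 2.30 CPM in GG and 55.9 ± 35.2 CPM in AG (SD, n = 2 each). The log2 fold change was -1.87 ± 0.52 SE and did not pass the threshold (edgeR adjusted p = 0.0706). SQLE passed without AG replicate 2 (log2 fold change -2.42, adjusted p = 0.00445), when no low-count filter was used (adjusted p = 0.0219) and with DESeq2 (adjusted p = 0.00452). These settings called 26.7%, 14.3% and 25.7% of all genes. Without AG replicate 1, where it was highest, the difference was -1.03 on the log2 scale (adjusted p = 0.0972).

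LSS (ENSMMUG00000022329) encodes lanosterol synthase, which closes the sterol rings of oxidised squalene. It was scarce, with 70 and 35 counts in GG replicates 1 and 2, and 21 and 20 counts in AG replicates 1 and 2. These counts correspond to levels of 3.32 and 1.19 CPM in GG and 1.50 and 1.02 CPM in AG. The groups overlapped, since GG replicate 2 lay between the AG libraries, and its exact 95% Poisson interval, 0.831 to 1.66 CPM, holds both AG levels. The interval of GG replicate 1, 2.59 to 4.20 CPM, lies above all the other libraries' intervals. The log2 fold change was 0.84 ± 0.79 SE (edgeR adjusted p = 0.509), and without GG replicate 1 it was -0.06.

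DHCR7 (ENSMMUG00000011976) encodes the reductase that turns 7-dehydrocholesterol into cholesterol, the last step of one arm of the pathway. It stood at 3.85 and 8.32 CPM in GG replicates 1 and 2, and at 1.07 and 6.09 CPM in AG replicates 1 and 2. The groups overlapped, with AG replicate 2 between the GG libraries. DHCR7 had 15 counts in AG replicate 1 and 120 in AG replicate 2, a 5.70-fold difference in CPM. A larger gap between the AG libraries was seen in 4.42% of tested genes. The log2 fold change was 0.76 ± 0.91 SE (edgeR adjusted p = 0.612), and without AG replicate 1 it was -0.01.

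SREBF2 (ENSMMUG00000003357) encodes SREBP2, the activator of the pathway, and is itself a target of SREBP2. Its level was 7.69 and 14.0 CPM in GG replicates 1 and 2, and 1.21 and 6.30 CPM in AG replicates 1 and 2. Both GG libraries lay above both AG libraries, but AG replicate 2 lay close to GG replicate 1. The means were 10.9 ± 4.49 CPM in GG and 3.75 ± 3.60 CPM in AG (SD, n = 2 each), a log2 fold change of 1.52 ± 0.84 SE (edgeR adjusted p = 0.271). SREBF2 had 17 counts in AG replicate 1 and 124 in AG replicate 2, a 5.20-fold difference in CPM that 5.01% of tested genes exceeded. Without AG replicate 2 the log2 fold change was 3.15 and passed the threshold (adjusted p = 0.0235), and without AG replicate 1 it was 0.78 (adjusted p = 0.379).

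The 6 genes therefore did not vary alike between replicates. In the AG pair, SREBF2 and DHCR7 were higher in replicate 2 by 1.99 and 2.07 on the log2(CPM + 0.5) scale, whereas HMGCS1, IDI1, LSS and SQLE were lower there, by values of -0.23 for IDI1 to -1.37 for SQLE. Over all tested genes, the median absolute gap was 0.52 in the AG pair and 0.32 in the GG pair. In the GG pair, DHCR7 and SREBF2 were again higher in replicate 2, by 1.02 and 0.83, and LSS was lower, with a gap of -1.18. HMGCS1 and IDI1 had gaps of 0.24 and 0.26 between the GG libraries, and SQLE of -0.30.

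**Figure D2:**
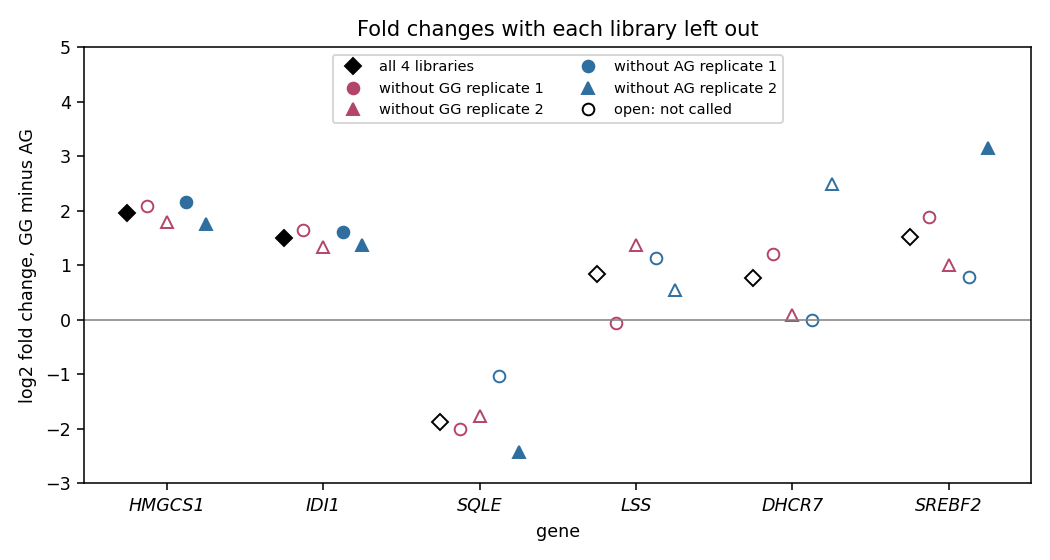
Log2 fold change of each of the 6 genes, GG minus AG, from all 4 libraries (diamonds) and with each library left out in turn. Filled symbols passed an edgeR adjusted p under 0.05. HMGCS1 and IDI1 stay between 1.34 and 2.17 in every fit and SQLE stays below 0, while DHCR7 spans -0.01 to 2.50.

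Ratios of counts within a library do not depend on how the libraries are scaled. The SQLE count was 0.444 and 0.303 of the HMGCS1 count in GG replicates 1 and 2, and 6.59 and 3.36 times the HMGCS1 count in AG replicates 1 and 2. Against IDI1, the SQLE ratio was 0.225 and 0.151 in GG and 2.57 and 1.16 in AG. Both ratios were thus lower in each GG library than in each AG library. This separation follows from the levels of SQLE, HMGCS1 and IDI1 given above and is not a separate result. The size of a ratio also depends on the lengths of its genes, so a ratio is compared between libraries alone. The ratio of IDI1 to HMGCS1 was 1.97 and 2.0 in GG and 2.57 and 2.90 in AG, so that these genes kept to a narrower range. The ratio of SREBF2 to DHCR7 was 2.0 and 1.69 in GG and 1.13 and 1.03 in AG. Both genes differed more than 5-fold in CPM between the AG libraries. In AG replicate 1 this ratio rests on 17 SREBF2 counts and 15 DHCR7 counts. Their exact Poisson intervals were 9.90 to 27.2 and 8.40 to 24.7 counts, so how close the AG ratios lie cannot be told. The ratios were not tested.

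**Figure D3:**
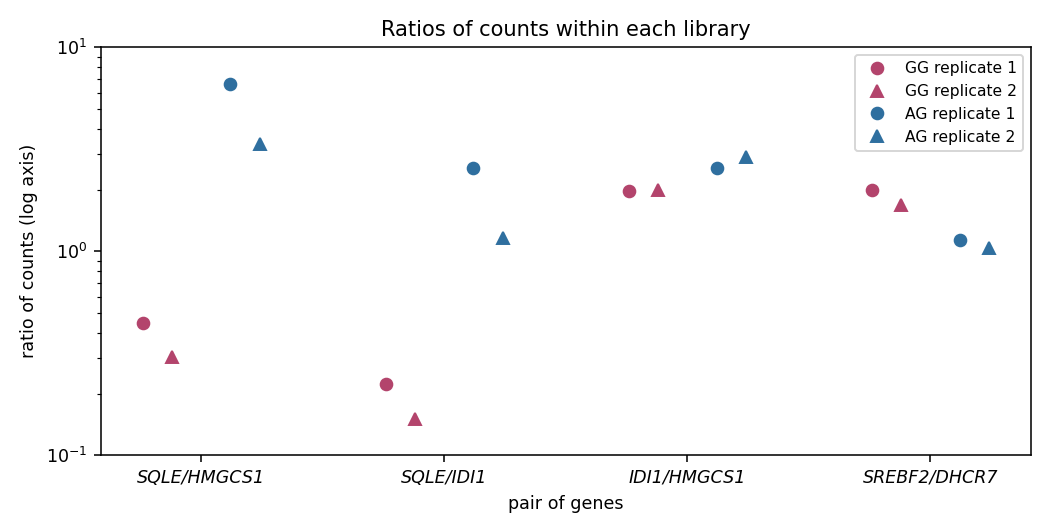
Ratio of the counts of a pair of genes in each library (log axis; the size of a ratio also depends on gene length, so libraries are compared within a pair of genes). The ratios with SQLE are lower in both GG libraries than in both AG libraries, which follows from the levels of SQLE, HMGCS1 and IDI1. IDI1 to HMGCS1 lies between 1.97 and 2.90 in all 4.

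Of 13 other enzymes of cholesterol synthesis described here, 8 had an identifier and 7 were tested, with 0 called by edgeR and 0 by DESeq2, and 1 at an unadjusted edgeR p under 0.05. The shares of all tested genes to set beside these counts, and beside those of the lists that follow, were 12.9% called by edgeR, 25.7% called by DESeq2 and 32.0% at an unadjusted edgeR p under 0.05. The log2 fold change was positive in 6 of the 7, with a median of 0.60. Before squalene, the kinase gene MVK had a log2 fold change of 0.62 ± 0.45 SE and the decarboxylase gene MVD 0.60 ± 0.64 SE; with 1 library left out they lay between 0.16 and 0.95 and between 0.13 and 1.28. FDPS, which encodes farnesyl diphosphate synthase, stood at 114 and 151.8 CPM in GG replicates 1 and 2, and at 103 and 34.9 CPM in AG replicates 1 and 2. Its AG libraries differed in the same direction as those of SQLE, and the log2 fold change was 0.95 ± 0.53 SE (edgeR adjusted p = 0.281). FDPS passed without AG replicate 1 (log2 fold change 1.92, adjusted p = 0.0168), and without AG replicate 2 its log2 fold change was 0.35. ACAT2, the acetoacetyl-CoA thiolase gene at the head of the pathway, had 0 counts in all 4 libraries, where 3 counts correspond to 0.102 to 0.214 CPM. The annotation behind the counts is not given, so these values may not mean that its RNA was absent.

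Among the sterol steps after lanosterol, NSDHL, a dehydrogenase gene of sterol demethylation, stood at 125.6 and 158.7 CPM in GG replicates 1 and 2, and at 97.0 and 71.5 CPM in AG replicates 1 and 2. Its groups did not overlap, and the log2 fold change of 0.76 ± 0.30 SE was not called (edgeR adjusted p = 0.147). HSD17B7, which encodes the reductase of the same demethylation, was the enzyme of this list with a negative log2 fold change, -0.28 ± 0.30 SE. The sterol reductase genes LBR and TM7SF2 had log2 fold changes of 0.19 ± 0.36 and 0.34 ± 0.77 SE, and each overlapped between the groups. LBR was below 0 without AG replicate 1 (-0.10) and without GG replicate 2 (-0.18), and TM7SF2 without GG replicate 2 (-0.64).

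**Figure D4:**
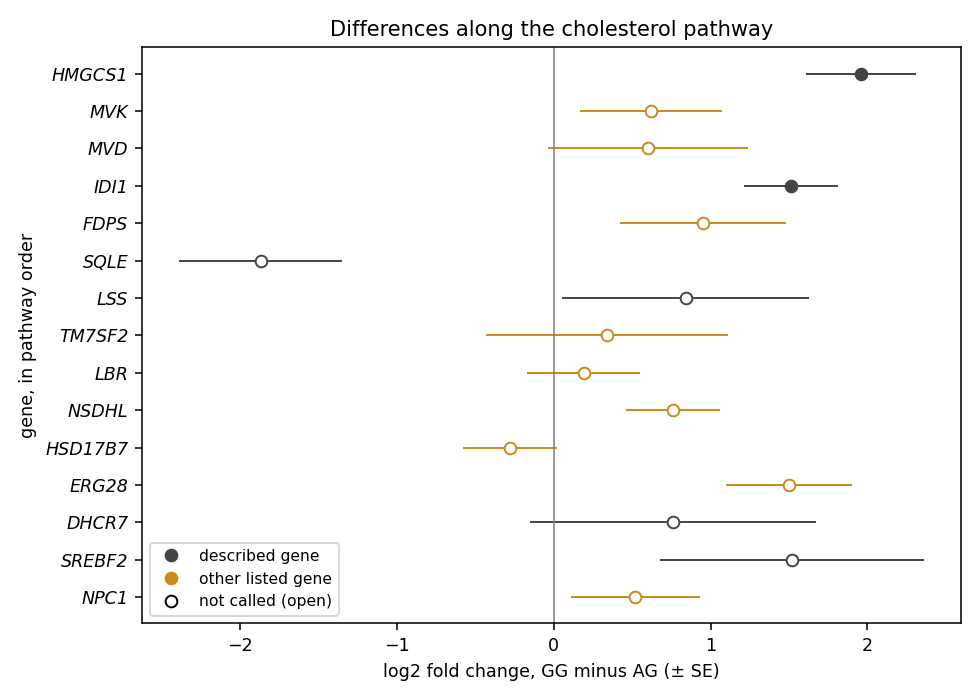
Log2 fold change, GG minus AG, with its SE for the measured genes of the pathway and of sterol transport described here, in pathway order from top to bottom. Filled points passed an edgeR adjusted p under 0.05. HMGCS1 and IDI1 are filled at 1.96 and 1.51, SQLE lies at -1.87, and all points other than HMGCS1 and IDI1 are open.

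A list of 6 other SREBP2 targets, drawn up for sterol uptake and transport, had 3 genes with an identifier and 2 tested. Of these 2, edgeR called 0 and DESeq2 called 1, and 1 had an unadjusted edgeR p under 0.05. ERG28, a homologue of a yeast protein that holds the sterol demethylation enzymes together, was that gene. By that role it belongs to sterol synthesis, so NPC1 alone among the tested genes stands for uptake or transport. ERG28 stood at 47.6 and 56.9 CPM in GG replicates 1 and 2, and at 13.2 and 23.7 CPM in AG replicates 1 and 2. The groups stood apart, with a log2 fold change of 1.50 ± 0.40 SE (edgeR adjusted p = 0.0635). ERG28 passed without AG replicate 2 (adjusted p = 0.0120), with DESeq2 (0.00521), without a filter (0.0353) and with a minimum mean of 10 CPM (0.0470), which called 20.9% of the genes it tested. NPC1, which encodes a lysosomal cholesterol exporter, had a log2 fold change of 0.52 ± 0.41 SE. The intestinal sterol transporter gene NPC1L1 had 0 counts in GG and 2 in AG.

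Of 11 genes of SREBP processing and sterol sensing, 10 had an identifier and 9 were tested, with 0 called by edgeR and 1 by DESeq2, and 1 at an unadjusted edgeR p under 0.05. The median log2 fold change was 0.26. MBTPS1, the gene for the Golgi protease that makes the first cut in SREBP2, stood at 31.8 and 46.7 CPM in GG and 8.26 and 19.7 CPM in AG, a log2 fold change of 1.49 ± 0.51 SE (edgeR adjusted p = 0.112). MBTPS1 passed with DESeq2 (adjusted p = 0.0286) and without AG replicate 2 (log2 fold change 2.23, adjusted p = 0.0159), and without AG replicate 1 its log2 fold change was 0.99. Its groups did not overlap, and its AG libraries lay in the same order as those of SREBF2. SPRING1, needed for the activity of that protease, and INSIG2, the paralogue of INSIG1, had log2 fold changes of -0.63 ± 0.27 and -0.62 ± 0.36 SE, also with groups apart. ERLIN2, which encodes a membrane protein of the endoplasmic reticulum, had 0.52 ± 0.41 SE. SREBF1, the gene for SREBP1, had 2 and 9 counts in GG and 0 and 11 counts in AG and was not tested.

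Of 6 genes of the branches that leave the mevalonate pathway, 5 were tested and 0 called by edgeR and 1 by DESeq2, with 2 at an unadjusted edgeR p under 0.05. DHDDS, a subunit of dolichol synthesis, stood at 679.3 and 474.5 CPM in GG replicates 1 and 2, and at 282.7 and 375.9 CPM in AG replicates 1 and 2, a log2 fold change of 0.81 ± 0.29 SE (edgeR adjusted p = 0.119). COQ2, of coenzyme Q synthesis, had a log2 fold change of 1.29 ± 0.47 SE (edgeR adjusted p = 0.124). Without AG replicate 2 both passed (adjusted p = 0.0385 for DHDDS and 0.0407 for COQ2), and COQ2 passed with DESeq2 (0.0491). Both genes lay higher in each GG library than in each AG library. GGPS1, which makes the prenyl donor for many small GTPases, overlapped between the groups, at -0.60 ± 0.41 SE, and PDSS2 of coenzyme Q synthesis had 0.74 ± 0.61 SE. With 1 library left out, GGPS1 lay between -0.99 and -0.10 and PDSS2 between 0.10 and 1.27. Of 8 genes of LXR, sterol efflux and esterification, 4 were tested, with 0 called by edgeR and 0 by DESeq2, and 0 at an unadjusted edgeR p under 0.05. SOAT1, which encodes the enzyme that esterifies cholesterol for storage, stood at 508.3 and 570.8 CPM in GG and 418.9 and 616.3 CPM in AG. The efflux pump gene ABCA1 and the phospholipid acyltransferase gene LPCAT3, both known LXR targets, had log2 fold changes of 1.17 ± 0.74 and 0.94 ± 0.71 SE, and NR1H2, which encodes an LXR receptor, 0.11 ± 0.62 SE.

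Of 12 genes of fatty acid synthesis and SREBP1 targets, 10 had an identifier, 9 were tested, 0 rose in GG, 1 fell and 8 were not called, with a median log2 fold change of 0.08. The gene that fell was ELOVL5, which encodes an elongase of polyunsaturated fatty acids. ELOVL5 stood at 13.0 and 13.2 CPM in GG replicates 1 and 2, and at 42.5 and 45.2 CPM in AG replicates 1 and 2, a log2 fold change of -1.74 ± 0.32 SE (edgeR adjusted p = 0.0294). The call was lost without GG replicate 1 or 2 (adjusted p = 0.242 and 0.250). ACACA, the gene for acetyl-CoA carboxylase at the start of fatty acid synthesis, stood at 14.2 and 11.3 CPM in GG and 37.0 and 25.1 CPM in AG, a log2 fold change of -1.28 ± 0.38 SE (edgeR adjusted p = 0.0812). ACACA passed with DESeq2 (adjusted p = 0.0187) and without AG replicate 2 (0.0228). FADS1, a desaturase gene, and ACSS2, an acetyl-CoA synthetase gene, had log2 fold changes of -2.10 ± 0.98 and 1.75 ± 0.89 SE at levels below 2.5 CPM in every library. With 1 library left out, FADS1 lay between -2.81 and -0.78 and ACSS2 between 0.91 and 2.26. Over the 6 lists as described here, 36 of 56 genes were tested, 0 rose and 1 fell in GG, 7 had an unadjusted edgeR p under 0.05 and 5 were called by DESeq2. These are 2.78%, 19.4% and 13.9% of the 36, each below the share of all tested genes. The log2 fold change was positive in 25 of the 36, with a median of 0.36, against 51.1% and 0.04 over all tested genes. Without GG replicate 2 it was positive in 18 of 37, with a median of -0.05.

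**Figure D5:**
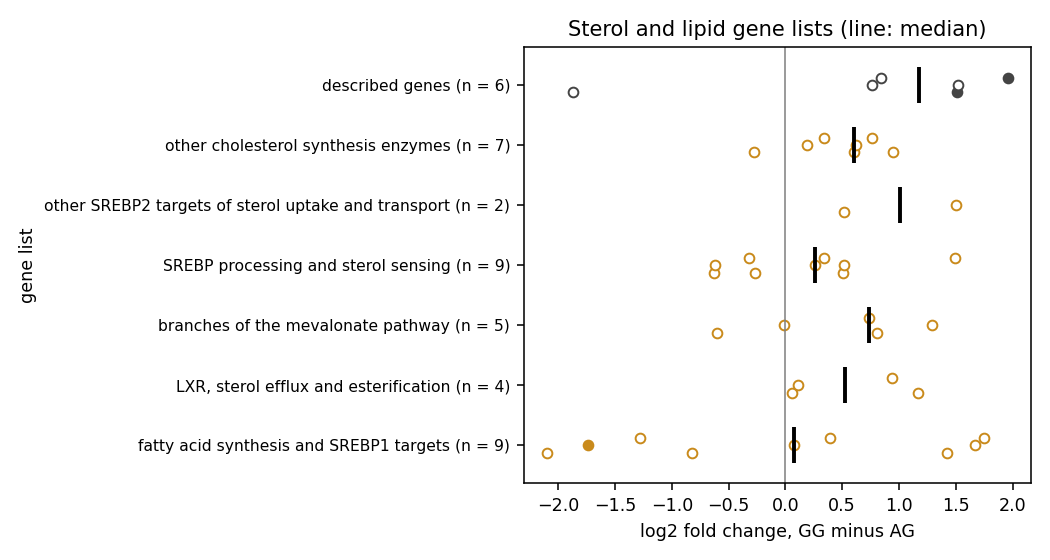
Log2 fold change, GG minus AG, of every tested gene of the 6 described genes and of the 6 further lists; n is the number tested, vertical black lines are medians and filled points passed an edgeR adjusted p under 0.05. The median is 1.18 for the described genes and between 0.08 and 1.01 for the other lists, and the filled points are HMGCS1, IDI1 and ELOVL5.

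The genes whose profile over the 4 libraries lay nearest the median profile of the 6 genes were NLN, CEP135 and DBNL, out of 5945 candidates with a mean of at least 10 CPM. Likeness was the root mean square distance between centred log2(CPM + 1) values, and was 0.135, 0.136 and 0.142. Of the 6 themselves, IDI1 lay at 0.363 from that median profile and SQLE farthest, at 1.55. NLN stood at 52.3 and 67.0 CPM in GG and 23.2 and 33.9 CPM in AG. None of these 3 genes was called (edgeR adjusted p = 0.0934 to 0.135). NLN and CEP135 passed with DESeq2 (adjusted p = 0.0374 and 0.0315). Without AG replicate 2, their edgeR log2 fold changes were 1.35 and 1.40. All 3 were picked for their profile over these same 4 libraries, so their differences between the groups follow from the choice. With 4 values per profile and 5945 candidates, near matches can arise from the search alone.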

How the data were processed

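The deposited table holds expected counts, estimated reads per Ensembl macaque gene that the authors did not scale to library size, 1 column per library; between 30.0% and 32.2% of values in a library were not whole. Per the submitters' processing notes, Trim Galore, Salmon 0.12.0, STAR 2.6.0c and the rheMac8 build were used, in roles not given there. No source used here gives the annotation, strandedness or filtering, so overlapping genes and near-identical copies are uncertain. Symbols were matched by identifier for 14654 of 21314 genes. The only gene coordinates to hand belonged to another build and were not used.

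Rounded counts of all 4 libraries entered edgeR 4.0.16 (R 4.3.3) with the group alone in the model, after filterByExpr (a minimum count of 10 and total of 15) and TMM scaling. The quasi-likelihood test was adjusted by Benjamini-Hochberg over 13227 genes, with calls at an adjusted p under 0.05. It was tried on simulated counts with the same spread in both groups, taken from this fit. That trial cannot show how the test behaves where the groups differ in spread. Standard errors are those implied by the F statistic, and CPM uses TMM-adjusted totals. Poisson intervals and the floor of 3 counts cover counting error only, since the labels name no molecular identifiers. Alternatives were other scalings, DESeq2 1.42.0, other filters, thinning to 14129529 counts, the replicate block, and leaving out each library. Named genes were all 8, every gene with an identifier of the first 2 further lists, up to 4 of lowest p in each remaining list, called genes, the 3 nearest profiles, and the cell markers; SREBF1 was named after its values were seen. Some genes of the further lists are not reported here and enter no count or median of those lists. The genes and lists were chosen with earlier results of these data known.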

Additional observations from a re-analysis of the deposited data

How the results depend on the processing

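Over all genes, 1709 were called; DESeq2 called 3333 and edgeR without a filter 2609, and leaving out 1 library gave 84 to 3786. Of the 6 measured genes 2 were called, and 0 to 4 with 1 library left out: 4 without AG replicate 2, when SREBF2 and SQLE were added, and 0 without GG replicate 1 or 2 (edgeR, 3 and 2 at an unadjusted p under 0.05). DESeq2 and the fit without a filter each called 3, adding SQLE. Of the 36 further pathway genes 1 was called, 5 with DESeq2, 2 without a filter, 2 with a minimum mean of 10 CPM, and 0 to 7 with 1 library left out: 7 without AG replicate 2, 2 without AG replicate 1, and 0 without GG replicate 1 or 2 (edgeR, 5 and 3 at an unadjusted p under 0.05). Without a GG library, only the AG pair informs the spread. HMGCS1 lay between 1.75 and 2.17 and IDI1 between 1.34 and 1.64 on the log2 scale over 11 alternatives, SQLE between -2.42 and -1.03, and SREBF2 between 0.78 and 3.15 over 10.

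The sign turned in uncalled genes when 1 library was left out. Without AG replicate 1, DHCR7 was -0.01, LBR -0.10, SOAT1 -0.20 and NR1H2 -0.41. Without GG replicate 1, LSS was -0.06. Without GG replicate 2, LBR was -0.18, TM7SF2 -0.64, ABCA1 -0.07, SOAT1 -0.05 and NR1H2 -0.52. With each library left out in turn, DHCR7 reached 2.50, LSS 1.37, TM7SF2 0.91, ABCA1 1.92, SOAT1 0.35 and NR1H2 0.92 at the other end of the range, and LBR 0.53. The cause was not tested.

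The replicate number was not stated to mark a shared batch or animal, and the deviations of same-numbered libraries correlated at 0.106 across genes. With the replicate block 1697 genes (12.8%) were called, among them 2 of the 6 genes and 2 of the 36, ERG28 being added (adjusted p = 0.0496). With 15 to 21 counts of DHCR7, LSS and SREBF2 in AG replicate 1, depth limits those values. The scalings moved the median of all genes by -0.021 (DESeq2 size factors) and 0.012 (upper quartile) on the log2 scale.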
